A study of Mus musculus with 6 samples.

Results

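Aminoacyl-tRNA synthetases, the enzymes that load each amino acid onto its tRNA, were followed here in cultured mouse cells of a line called PPP3R1, starved for 6 h or kept in normal medium. The genes were taken from the annotation of the Affymetrix array by their symbols: 18 synthetases without a final 2 in the symbol, called cytosolic here, 8 mitochondrial synthetases, whose symbols end in 2, and the 3 scaffold genes Aimp1, Aimp2 and Eef1e1. These are 29 of the 12393 genes measured, read by 52 probe sets that name a single gene. Aimp2 ends in 2 but encodes a scaffold protein of the cytosolic complex and was kept out of the mitochondrial group. Synthetase genes outside these 29 were not analysed here.

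There were 6 arrays, 3 from starved and 3 from control cells, hybridised with biotin-labelled cRNA. PPP3R1 is also the name of the regulatory subunit of calcineurin, a calcium-dependent phosphatase, and nothing in the labels says how the line was altered or what the starvation medium lacked. The titles and the design text give unstarved PPP3R1 cells as the control, while the protocol fields name wild-type MEFs (mouse embryonic fibroblasts) in that place. Groups were set by the titles, so a difference between lines cannot be told apart from starvation if the protocol fields are right. The replicates are called biological, but separate cultures are not described, and p-values measure the spread between these arrays, which may be technical. Scan dates were not used here, so an array batch cannot be told apart from the groups.

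Cytosolic synthetases supply charged tRNA to the ribosomes of the cytosol, and a second, mostly separate set of nuclear genes supplies the mitochondrial ribosomes. Gars and Kars each encode the enzyme for both compartments. In mammals several cytosolic synthetases sit together in a multisynthetase complex held by the scaffold proteins that Aimp1, Aimp2 and Eef1e1 encode, while the others act on their own. When amino acids run short, uncharged tRNA activates the kinase GCN2 (gene Eif2ak4), translation of the transcription factor ATF4 rises, and ATF4 induces amino acid synthesis enzymes, transporters and many cytosolic synthetases.

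The arrays were much alike within groups, with correlations across probe sets of 0.998 within groups and 0.986 to 0.988 between them. The gap between the 3 prime and 5 prime control probe sets of Gapdh changed by -0.08 (log2; exact permutation test, p = 0.1, the smallest that 3 against 3 arrays allow) and that of Actb by -0.01 (exact permutation p = 0.7). Of 12 fibroblast markers 11 lay above a log2 level of 5, used as the limit for dim probe sets, Thy1 being the exception. All 4 endothelial markers lay under it, as did 4 of 5 epithelial and 3 of 5 leukocyte markers, including the defining genes Pecam1, Epcam and Ptprc. The mean level of the leukocyte markers was 4.54 to 4.76 in control and 4.74 to 4.82 in starved arrays, with overlap and with Cd68 and Lyz2 called higher. Ptprc, Adgre1 and Cd3e, all dim, changed by -0.04, -0.12 and -0.10 without passing. The mean of the fibroblast markers was 11.41 to 11.44 in control and 11.29 to 11.3 in starved arrays (3 called higher, 4 lower). Lum had by far the largest change among them, -2.05 ± 0.06, and weighs heavily in that mean. The next were Pdgfrb (-0.81 ± 0.07) and Col1a1 (0.57 ± 0.06). Of 4 neural markers 2 lay above the limit, and their mean was 5.093 to 5.126 in control and 5.163 to 5.238 in starved arrays, without overlap and with Tubb3 called higher. Cdh1 among the epithelial and Pecam1 among the endothelial markers were called higher at dim levels. The part of these markers in the results was not tested. Control replicate 3 was the highest of the control arrays for 18 of the 29 genes (62.1%) and for 41.5% of all genes.

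In starved cells 9 of the 29 genes rose, by 1.18 to 1.56-fold, and 6 fell, by 1.16 to 1.31-fold. Among cytosolic synthetases 7 of 18 rose, led by Lars and Vars, and Rars fell. Among mitochondrial synthetases Tars2 and Fars2 rose and Rars2, Ears2 and Hars2 fell. Of the scaffold genes, Eef1e1 and Aimp2 fell. In limma's test, with p-values adjusted over all probe sets at a threshold of 0.05 and a gene read by its brightest probe set, 51.7% of the members were called against 40.8% of all genes. Among the 18 cytosolic synthetases 44.4% were called, near the share of all genes. The share was 62.5% of the 8 mitochondrial synthetases and 66.7% of the 3 scaffold genes. The share of all genes called was 20.8% in the higher and 20.1% in the lower direction. The starved and control arrays did not overlap in 18 of the 29 genes, and in 52.5% of all genes. The median absolute change of the members was 0.21 (log2) against 0.16 over all genes, and their median change 0.07 against -0.01. By group the median absolute change was 0.15 for cytosolic synthetases, 0.30 for mitochondrial synthetases and 0.23 for scaffold genes. The calls thus stand among many others on these arrays, in bulk RNA fewer cells of a kind and less RNA per cell cannot be told apart, and no difference between the synthetases and other genes was tested.

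**Figure D1:**
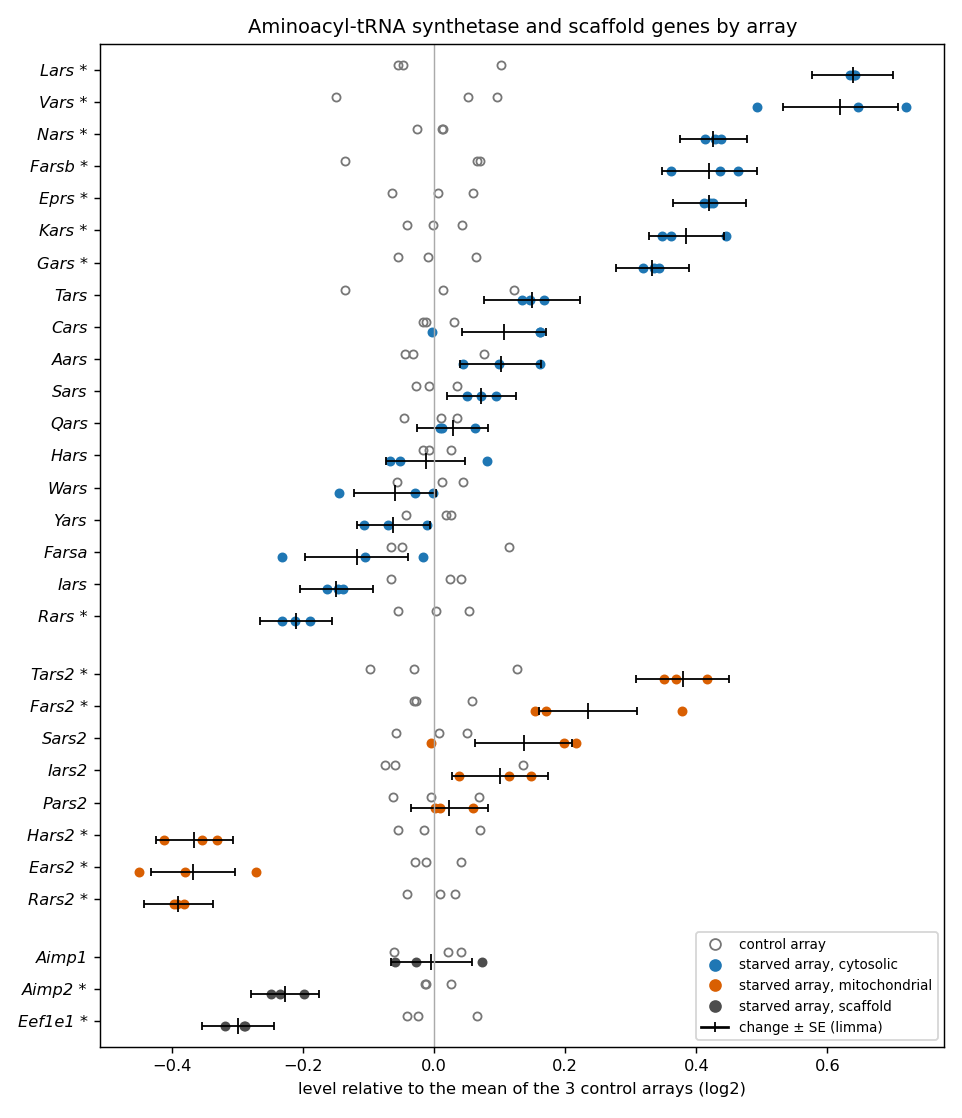
Level of each of the 29 genes on each array (log2, x axis) relative to the mean of the 3 control arrays, with control arrays as open grey circles and starved arrays as filled circles in blue (cytosolic), orange (mitochondrial) or dark grey (scaffold), read by the brightest probe set. Black bars give the change with its standard error from limma, and an asterisk marks the 15 genes past an adjusted p of 0.05. For the 7 cytosolic genes called higher all starved arrays lie to the right of all control arrays, and the changes of the means are 0.33 to 0.64.

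Lars, the leucyl-tRNA synthetase gene, had the largest change of the 29. It was at 9.75, 9.74 and 9.90 (log2) in control replicates 1, 2 and 3 and at 10.44, 10.44 and 10.43 in starved replicates 1, 2 and 3. The starved arrays lay close together and well above all control arrays, a rise of 0.64 ± 0.06 (SE, n = 3 per group) or 1.56-fold (limma adjusted p = 0.000127). Vars, for valine, was at 9.24, 9.04 and 9.29 in control and 9.68, 9.91 and 9.84 in starved arrays. It varied more within groups than Lars but did not overlap, and its rise was 0.62 ± 0.09 (limma adjusted p = 0.000878).

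Nars, for asparagine, was at 10.79, 10.75 and 10.78 in control and 11.21, 11.20 and 11.18 in starved arrays. This rise of 0.43 ± 0.05 (limma adjusted p = 0.000369) was seen in its other probe set too, at 0.37 ± 0.06. Eprs encodes a single protein that charges both the glutamate and the proline tRNAs of the cytosol. Its brightest probe set was at 10.01, 9.94 and 10.07 in control and 10.43, 10.42 and 10.43 in starved arrays, with no overlap and a rise of 0.42 ± 0.06 (limma adjusted p = 0.000651). The other probe sets of Eprs gave larger rises, of 0.68 ± 0.06 and 0.58 ± 0.09, so the size of the change depends on the probe set while its direction does not.

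The genes whose enzymes serve both compartments rose. Kars, for lysine, was at 10.62, 10.66 and 10.70 in control and 11.01, 11.02 and 11.10 in starved arrays. The groups lay apart by more than the range within either of them, and the rise was 0.38 ± 0.06 (limma adjusted p = 0.0011). Gars, for glycine, was at 10.80, 10.76 and 10.87 in control and 11.15, 11.15 and 11.13 in starved arrays, a rise of 0.33 ± 0.06 (limma adjusted p = 0.00206) with no overlap.

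The phenylalanine enzyme of the cytosol is built from alpha subunits, encoded by Farsa, and beta subunits, encoded by Farsb, and the pair of genes gave different readings. Farsb was at 8.95, 9.15 and 9.15 in control and 9.52, 9.44 and 9.55 in starved arrays. All starved arrays were above all control arrays, with a rise of 0.42 ± 0.07 (limma adjusted p = 0.00247). Farsa was at 8.41, 8.40 and 8.58 in control and 8.36, 8.23 and 8.44 in starved arrays. Its groups overlapped and its change of -0.12 ± 0.08 did not pass (limma adjusted p = 0.287). The difference between the changes of the subunit genes was not tested. Of the 4 probe sets of Farsb 3 rose, by 0.28 to 0.64, and all 3 are of types that can match several transcripts. The remaining probe set, close to the dim limit, changed by 0.15 ± 0.12 and did not pass when the others were left out (adjusted p = 0.384, with 8.76e-06 to 0.384 across the alternatives).

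Rars, for arginine, was the only cytosolic synthetase called lower. It was at 10.21, 10.27 and 10.32 in control and 10.05, 10.03 and 10.08 in starved arrays. The groups did not overlap and the fall of -0.21 ± 0.06 passed (limma adjusted p = 0.0172). It did not pass without starved replicate 2 (adjusted p = 0.0578) and misses a threshold of 0.01 in the fit of all arrays, with adjusted p over the alternatives between 0.00081 and 0.0578.

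The other 10 cytosolic synthetases did not pass, with changes from -0.15 to 0.15. They were Tars (threonine, 0.15 ± 0.07), Cars (cysteine, 0.11 ± 0.06), Aars (alanine, 0.10 ± 0.06), Sars (serine, 0.07 ± 0.05), Qars (glutamine, 0.03 ± 0.05), Hars (histidine, -0.01 ± 0.06), Wars (tryptophan, -0.06 ± 0.06), Yars (tyrosine, -0.06 ± 0.06), Farsa (-0.12 ± 0.08) and Iars (isoleucine, -0.15 ± 0.06). The starved arrays of Iars lay below all its control arrays in both of its probe sets (limma adjusted p = 0.0666 in the brighter), and those of Tars and Sars lay above theirs by a gap of 0.01 and 0.02. Iars passed, as a fall, in 5 of its 17 alternatives (adjusted p = 0.0201 to 0.176 across all of them). Tars passed with an intensity trend and robust moderation (adjusted p = 0.0331, with 0.0331 to 0.401 across its alternatives).

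Wars and Cars were called in a dimmer probe set though not in their brightest. Wars has 4 probe sets with changes from -0.21 to 0.07, of which a single one fell (-0.21 ± 0.06, limma adjusted p = 0.0164). In human cells Wars is known to be induced by interferon. Of 14 interferon response genes listed for comparison 12 were measured on these arrays, and all 12 rose (median change 1.06). Among all genes 20.8% were called higher. Wars was read at 8.31, 8.21 and 8.28 in control and 8.12, 8.24 and 8.27 in starved arrays, so its groups overlapped. The dimmer probe set of Cars, at a control mean of 5.38, fell by 0.23 ± 0.07 (limma adjusted p = 0.0259), opposite to its brightest, and the mean of both changed by -0.06 (adjusted p = 0.406, with 0.0801 to 0.484 across its alternatives). The direction of Cars is therefore unsettled.

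**Figure D2:**
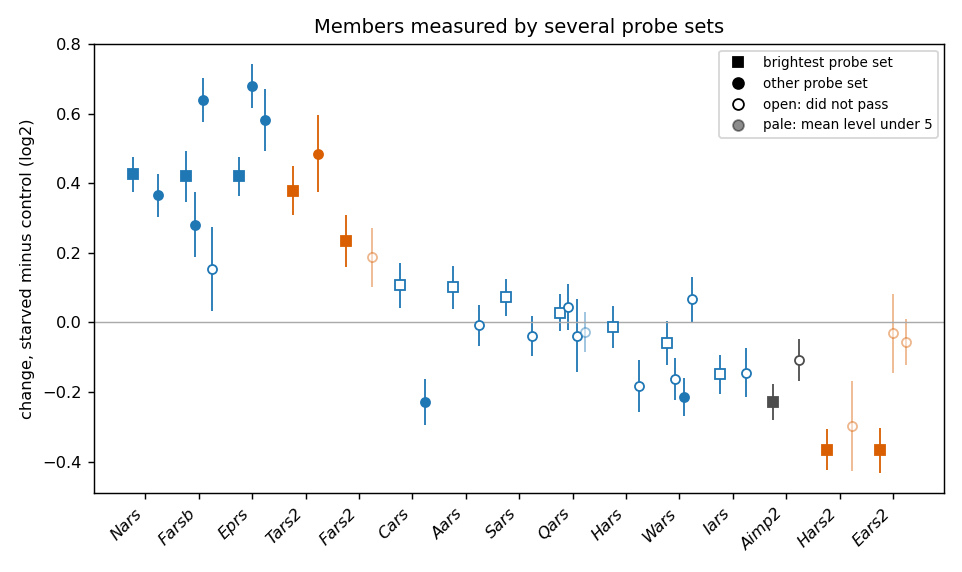
Change in starved against control cells (log2, y axis, with standard errors from limma) for every probe set of the 15 genes that have several, with squares for the brightest probe set, filled symbols for an adjusted p under 0.05 and pale symbols for a mean level under 5. Colours give cytosolic (blue), mitochondrial (orange) and scaffold (dark grey) genes. No gene has probe sets called in opposite directions, while Wars and Cars are called in a dimmer probe set alone.

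The cytosolic genes were also grouped by structure and by prior knowledge. Synthetases fall into class I and class II by the fold of the catalytic domain. Of 9 class I genes 3 rose (Lars, Vars and Eprs, whose protein also holds a class II domain) and Rars fell. Of 9 class II genes 4 rose (Nars, Farsb, Kars and Gars). In either class 44.4% of the genes were called, near the 40.8% of all genes. Of 12 measured genes listed, from general knowledge, as responsive to ATF4 in mouse fibroblasts, 5 rose (Eprs, Gars, Lars, Nars and Vars), 0 fell and 7 did not pass. Of the 6 cytosolic genes outside that list, Farsb and Kars rose and Rars fell. The share called was 41.7% of the listed genes and 50% of the 6 outside the list, against 40.8% of all genes in both directions. All calls of listed genes were rises, and 20.8% of all genes were called higher. The median change was 0.13 (log2) for the listed genes, 0.01 for the 6 outside and -0.01 over all genes, and the differences were not tested. The median absolute change was 0.15 for the listed genes, and 0.16 both for the 6 outside and over all genes.

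Promoter windows show what the sequence just before some of these genes holds. They run from 250 bases before to 50 bases after the start of the gene in RefSeq (build GRCm38.p6) and were found for 20 of the 29 genes. Each was searched on both strands for the letters TGATGNAA, the core of the element bound by C/EBP and ATF4 dimers (reverse complement TTNCATCA), and for CACGTG, an E-box that reads the same on both strands. The first was present in 5 of the 20 genes (25.0%) and in 4.51% of all 27025 genes with a window, the second in 5 genes (25.0%) against 8.09%. Of the genes with the first motif Gars was called higher, and Aars, Tars, Yars and Iars were not called. Of the 6 genes called higher that have a window, Gars alone held it. Among the amino acid deprivation genes described further on, 7 of 23 with a window held it. Of these Asns, Nupr1, Atf3 and Slc7a11 rose, Trib3 fell, and Chac1 (-0.05 ± 0.06) and Vldlr (0.01 ± 0.08) did not pass. Atf3 and Slc7a11 lay close to the dim limit, at control means of 5.10 and 4.94. That list includes targets of ATF4 such as Trib3, so the share with the motif in it is no independent observation.

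The windows of the 3 genes with the largest changes among those with a printable window are given first, then those of Gars and Aars for the motif they hold, each 5′ to 3′ on the strand of the gene and with capitals for the motif matches. Eprs (chr1:185362794-185363093, plus strand) and Farsb (chr1:78488848-78489147, minus strand) rose by nearly the same amount, and Rars2 (chr4:34614707-34615006, plus strand) fell. Gars lies at chr6:55037751-55038050 and Aars at chr8:111033592-111033891, both on the plus strand.
Eprs: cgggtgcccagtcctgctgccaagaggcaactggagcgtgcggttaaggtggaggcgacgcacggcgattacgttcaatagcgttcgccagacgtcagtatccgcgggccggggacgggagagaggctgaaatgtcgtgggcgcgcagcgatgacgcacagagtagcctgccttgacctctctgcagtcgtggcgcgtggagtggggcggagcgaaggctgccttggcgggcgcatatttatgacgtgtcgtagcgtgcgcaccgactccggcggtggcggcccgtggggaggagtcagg
Farsb: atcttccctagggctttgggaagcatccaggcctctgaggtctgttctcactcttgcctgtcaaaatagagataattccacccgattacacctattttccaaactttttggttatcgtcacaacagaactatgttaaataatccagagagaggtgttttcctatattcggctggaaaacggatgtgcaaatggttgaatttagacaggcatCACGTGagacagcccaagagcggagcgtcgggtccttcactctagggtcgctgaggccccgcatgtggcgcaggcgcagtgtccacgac
Rars2: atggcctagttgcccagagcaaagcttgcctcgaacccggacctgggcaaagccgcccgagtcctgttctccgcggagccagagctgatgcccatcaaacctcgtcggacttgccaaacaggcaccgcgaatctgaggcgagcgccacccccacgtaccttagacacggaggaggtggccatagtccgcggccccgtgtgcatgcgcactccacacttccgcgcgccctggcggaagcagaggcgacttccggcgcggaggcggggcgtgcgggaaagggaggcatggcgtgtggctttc
Gars: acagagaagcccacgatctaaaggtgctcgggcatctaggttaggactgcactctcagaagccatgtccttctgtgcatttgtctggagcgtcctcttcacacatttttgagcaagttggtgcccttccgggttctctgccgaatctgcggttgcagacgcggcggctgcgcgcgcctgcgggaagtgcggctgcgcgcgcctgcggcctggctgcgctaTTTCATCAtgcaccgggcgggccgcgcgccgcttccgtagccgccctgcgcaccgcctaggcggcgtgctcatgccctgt
Aars: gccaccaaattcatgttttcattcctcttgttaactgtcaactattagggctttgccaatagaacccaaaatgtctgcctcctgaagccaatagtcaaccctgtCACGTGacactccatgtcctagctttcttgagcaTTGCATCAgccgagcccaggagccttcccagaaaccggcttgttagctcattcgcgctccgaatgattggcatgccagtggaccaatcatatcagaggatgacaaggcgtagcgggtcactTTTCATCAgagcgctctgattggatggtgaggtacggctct
Eprs and Rars2 held neither motif. Farsb held the E-box, which begins 39 bases upstream of the start. Gars held TGATGNAA in reverse, beginning 30 bases upstream, and Aars held it in reverse at 2 places, beginning 112 bases upstream and just after the start, with an E-box before them. Gars rose by 0.33 ± 0.06 and Aars changed by 0.10 ± 0.06 without passing (limma adjusted p = 0.244). A match of letters is a description of the window and no evidence of binding.

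Mitochondrial synthetases moved in both directions. Tars2, for threonine, was at 7.52, 7.46 and 7.68 in control and 7.90, 7.97 and 7.92 in starved arrays, a rise of 0.38 ± 0.07 (limma adjusted p = 0.00341), with 0.49 ± 0.11 in its other probe set. Both probe sets of Tars2, and both of Fars2, are of types that can match several transcripts. Neither gene was measured when these types were left out. Fars2, for phenylalanine, was at 8.10, 8.01 and 8.01 in control and 8.42, 8.20 and 8.21 in starved arrays. Starved replicate 1 stood above the other starved arrays, yet all of them lay above the control arrays, and the rise of 0.23 ± 0.07 passed narrowly (limma adjusted p = 0.0384). It lost the call in 8 of 16 alternatives. It did not pass when centred on array medians (adjusted p = 0.0546), without moderation (0.0957) or at a threshold of 0.01. It also did not pass when any array except starved replicate 2 was left out (adjusted p = 0.0543, 0.105 and 0.0934 without control replicates 1, 2 and 3, 0.0956 without starved replicate 1 and 0.0514 without starved replicate 3, with 0.0082 to 0.105 across its alternatives).

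Rars2, the mitochondrial arginine enzyme, had the largest fall of the 29 genes. It was at 8.47, 8.42 and 8.49 in control and 8.06, 8.08 and 8.07 in starved arrays. The starved arrays differed by no more than 0.02 and lay below every control array, a fall of -0.39 ± 0.05 (limma adjusted p = 0.000661). Ears2, for glutamate, was at 6.41, 6.48 and 6.42 in control and 5.98, 6.16 and 6.05 in starved arrays, without overlap and with a fall of -0.37 ± 0.06 (limma adjusted p = 0.00247). Its other probe sets lay under the dim limit and did not pass, and the mean of all 3 did not pass (-0.15, adjusted p = 0.127, with 0.000871 to 0.127 across its alternatives).

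Hars2, for histidine, was at 7.84, 7.88 and 7.97 in control and 7.57, 7.54 and 7.49 in starved arrays, a fall of -0.37 ± 0.06 (limma adjusted p = 0.00169). Its brightest probe set can match several transcripts, and the other, under the dim limit, changed by -0.30 ± 0.13 without passing (adjusted p = 0.113 when the first is left out, with 0.000126 to 0.113 across its alternatives). Sars2 (serine, 0.14 ± 0.07), Iars2 (isoleucine, 0.10 ± 0.07) and Pars2 (proline, 0.02 ± 0.06) did not pass, and their groups overlapped. Sars2 was at 6.59, 6.53 and 6.64 in control and 6.58, 6.78 and 6.80 in starved arrays and passed when starved replicate 1 was left out (adjusted p = 0.0466, between that and 0.438 in the alternatives).

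Cytosolic and mitochondrial enzymes for the same amino acid are set side by side here, without a test of the difference. For glutamate the genes were called in opposite directions, as Eprs, whose protein also charges proline, rose by 0.42 and Ears2 fell by 0.37. For proline Eprs rose and Pars2 changed by 0.02 without passing. Arginine was the pair in which both genes fell, Rars by 0.21 and Rars2 by 0.39. For phenylalanine Farsb and Fars2 rose (0.42 and 0.23) and Farsa did not pass. For threonine Tars2 rose by 0.38, while Tars changed by 0.15 without passing. Hars and Hars2 are neighbours on chromosome 18, with no protein-coding gene between their starts in RefSeq: Hars2 fell, whereas the brightest probe set of Hars changed by -0.01 and the dimmer one by -0.18 ± 0.07 (limma adjusted p = 0.0918). For isoleucine and serine neither gene passed. After each gene was centred on its own mean of 6 arrays, the cytosolic genes averaged -0.11, -0.11 and -0.04 in control and 0.06, 0.09 and 0.11 in starved replicates 1, 2 and 3. The mitochondrial genes averaged -0.01, -0.01 and 0.06 in control and -0.02, -0.01 and -0.02 in starved replicates.

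The multisynthetase complex was represented by 6 of its synthetase genes and all 3 scaffold genes, and its members did not move together. Of these 9 genes 3 rose and 3 fell (66.7% called, against 40.8% of all genes). Lars, Eprs and Kars rose, Rars fell, and Iars and Qars did not pass. Eef1e1, whose product also acts in the DNA damage response, was at 8.85, 8.83 and 8.94 in control and 8.58, 8.55 and 8.58 in starved arrays, a fall of -0.30 ± 0.06 (limma adjusted p = 0.00343) with no overlap. Aimp2 was at 9.14, 9.18 and 9.14 in control and 8.92, 8.91 and 8.96 in starved arrays. This fall of -0.23 ± 0.05 passed (limma adjusted p = 0.00914), while the change of -0.11 ± 0.06 in its other probe set did not, although the groups narrowly did not overlap there either. Aimp1 was at 9.81, 9.91 and 9.89 in control and 9.95, 9.81 and 9.85 in starved arrays. Its groups overlapped and its change was 0.00 ± 0.06 (limma adjusted p = 0.965). Of the 12 cytosolic synthetases outside the listed complex genes 4 rose (Vars, Nars, Farsb and Gars) and 0 fell, with a median change of 0.10 (log2). The share called outside the complex was 33.3%, all of it higher, while 20.8% of all genes were called higher and 20.1% lower. In both directions together 40.8% of all genes were called. The difference between these groups was not tested.

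**Figure D3:**
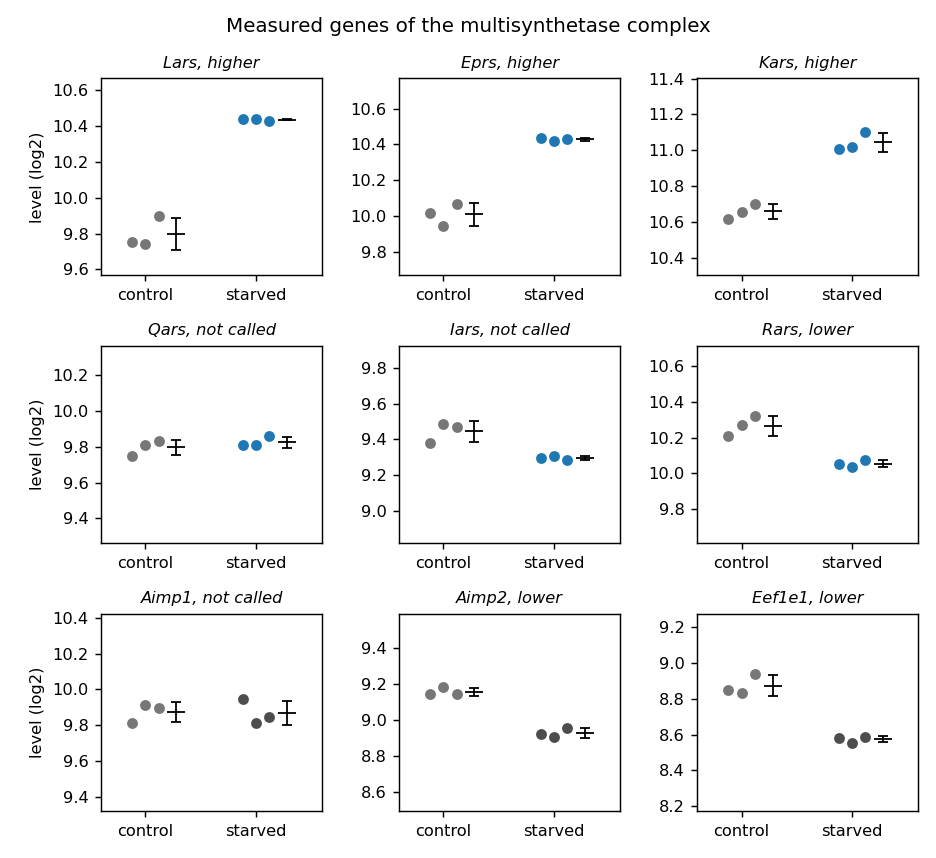
Levels (log2, y axis) of the 9 measured genes of the multisynthetase complex in the 3 control (grey) and 3 starved arrays (blue for synthetases, dark grey for scaffold genes), with replicates 1 to 3 from left to right and the mean ± SD at the right of each group. Every panel spans the same height in log2 units. Lars, Eprs and Kars rise, Rars, Aimp2 and Eef1e1 fall, and Qars, Iars and Aimp1 are not called.

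Genes that act around tRNA charging were listed for comparison, with the same test and threshold. Of 27 measured genes of amino acid deprivation signalling 13 rose and 6 fell (70.4% called, against 40.8% of all genes). Nupr1, a stress-induced chromatin protein gene, rose by 1.35 ± 0.06, asparagine synthetase Asns by 1.00 ± 0.05, Ddit3, which encodes CHOP, by 0.92 ± 0.06 and Shmt2, the mitochondrial serine hydroxymethyltransferase gene, by 0.74 ± 0.06. Asns, which makes asparagine, and Nars, which charges it to tRNA, thus both rose. Atf4 itself changed by -0.05 ± 0.06 without passing, and so did Eif2ak2, the next in level of those not called (0.00 ± 0.12). The genes that fell included Eif2ak4, which encodes the GCN2 sensor of uncharged tRNA (-0.31 ± 0.08, limma adjusted p = 0.015), and its inhibitor gene Impact (-0.56 ± 0.05). Trib3, a target of ATF4 and CHOP, fell too (-0.29 ± 0.07, limma adjusted p = 0.013). The others that fell were Cebpb (-0.60 ± 0.06), Ppp1r15b (-0.58 ± 0.07) and Cebpg (-0.18 ± 0.05). The brightest probe sets of Nupr1, Shmt2, Eif2ak4, Trib3 and Ppp1r15b are of types that can match several transcripts.

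Among 29 genes of tRNA maturation, editing and export 8 rose and 4 fell, with a median change of 0.00. The 41.4% called is close to the 40.8% of all genes. Xpot, the gene of the exporter that carries mature tRNA out of the nucleus, fell by 0.77 ± 0.06, from a mean of 9.17 to 8.40 (limma adjusted p = 3.63e-05), a larger absolute change than that of any of the 29 genes. Rpp30, a subunit gene of the RNase that trims the 5 prime end of tRNA, rose by 0.64 ± 0.07, the tRNA methyltransferase gene Nsun2 by 0.56 ± 0.05, while Yrdc, needed for a modified base beside the anticodon, fell by 0.54 ± 0.07. Tsen34 and Elp2, the brightest of those not called, changed by 0.00 ± 0.05 and -0.09 ± 0.05, in probe sets of types that can match several transcripts.

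Cytosolic elongation and release factors gave 1 rise and 3 falls among 9 genes (44.4% called, near the 40.8% of all genes): Eif5a rose by 0.30 ± 0.05, and the release factor gene Etf1 (-0.34 ± 0.06), Eef1b2 (-0.26 ± 0.06) and Eef2 (-0.22 ± 0.05) fell. Eef1a1, which delivers charged tRNA to the ribosome, changed by -0.03 ± 0.05 at a control mean of 14.34 and did not pass, nor did Eef1d (-0.02 ± 0.05). Among 14 genes of mitochondrial translation and tRNA amidation 3 rose and 3 fell (42.9% called, again near the 40.8% of all genes). Trit1, a tRNA isopentenyltransferase gene, rose by 0.88 ± 0.07 and Mterf4 by 0.33 ± 0.07. Mtfmt, which formylates the initiator tRNA of mitochondria, fell by 0.38 ± 0.08 and Lrpprc by 0.28 ± 0.06. Mtif2 and Gfm1, the brightest of those not called, changed by 0.06 ± 0.08 and 0.13 ± 0.07. The brightest probe sets of Eif5a, Eef1b2, Eef1d, Trit1 and Gfm1 are of types that can match several transcripts.

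**Figure D4:**
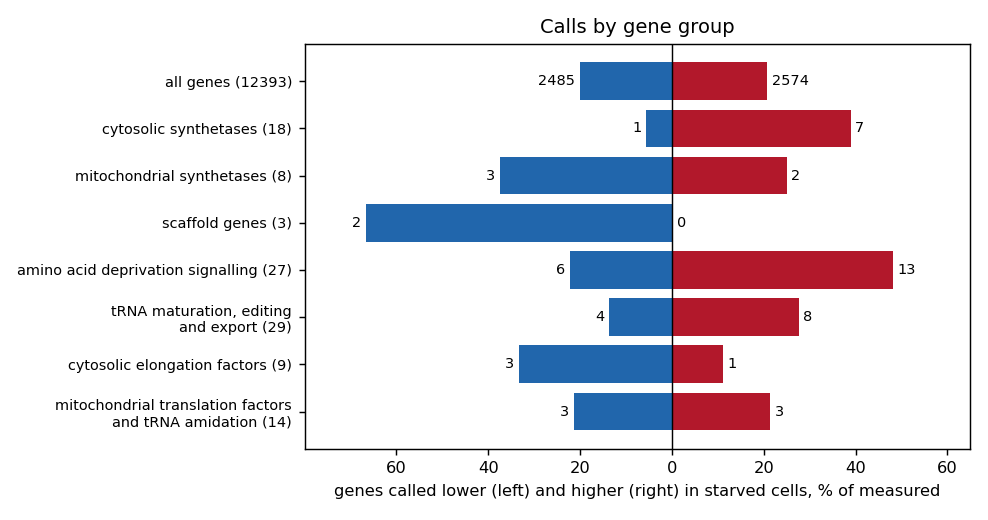
Share of the measured genes of each group (number in brackets) that limma called lower (blue, left) or higher (red, right) in starved cells at an adjusted p of 0.05, with the number of genes at each bar. All 12393 genes are at the top. The cytosolic synthetases have 7 higher and 1 lower, the mitochondrial ones 2 higher and 3 lower.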

How the data were processed

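Total RNA was measured on 6 Affymetrix mouse arrays. The authors deposited log2 values per probe set, for which the submitters' processing notes name RMA and affy, without versions. As RMA includes quantile normalization, a shift shared by most transcripts would not show. Of 22690 probe sets, 64 control probe sets were set aside and 22626 tested with limma 3.58.1 in R 4.3.3 (lmFit, eBayes, two-sided, no covariate, Benjamini-Hochberg over all probe sets, threshold 0.05). Of these, 20380 named 1 gene. All 29 members matched the RefSeq table by gene ID. A gene was read by its probe set with the highest mean. The number of arrays limits the precision.

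Members and lists were chosen with earlier results of these data known, and no list was tested as a set. Every member is named, and array values are given for called members with the largest changes and for scaffold genes. From each related list up to 4 called genes of largest change and up to 2 bright uncalled genes are named, plus Atf4, Ddit3, Asns, Eif2ak4, Xpot and Trib3. Impact, Cebpb, Ppp1r15b, Cebpg and the motif carriers of their list are named after their values were seen. Farsa, Wars and Sars2 were likewise given by array after their values were seen, as were the windows of Gars and Aars. The fit was tested on simulated data. Alternatives were dim and multiple-transcript probe sets left out, scaling, moderation, weights, probe set means, adjustment, threshold, replicate block and each array left out. Figures used matplotlib 3.10.9.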

Additional observations from a re-analysis of the deposited data

How the results depend on the processing

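Across 17 alternatives, 10 of the 15 called genes (Aimp2, Eef1e1, Eprs, Gars, Kars, Lars, Nars, Rars2, Tars2 and Vars) kept direction and call wherever they were measured, and none of the 15 changed direction. Farsb, Rars, Fars2, Ears2 and Hars2 each lost the call at least once, as given in the report. Leaving out 1 array gave 7691 to 8394 probe sets called, 14 to 15 members, 7 to 8 cytosolic, 4 to 5 mitochondrial and 2 scaffold genes. Without the probe set types that may match several transcripts there were 5716 calls against 8933, with fewer probe sets tested, 11 members of 25 and 2 mitochondrial genes of 6. Centring and a second quantile normalization moved the median of all genes by -0.02 and -0.01 (log2). Among uncalled genes the sign turned for Aimp1 (-0.0429 to 0.0230), Hars (-0.0597 to 0.0142) and Pars2 (-0.00808 to 0.0577) on leaving out single arrays, for Qars without the multiple-match types (-0.0279) and for Cars in the mean of its probe sets (-0.0610), and the cause was not tested. The replicate numbers did not pair the arrays (correlations of deviations -0.09, 0.01 and -0.01, with 1 of 3 arrays closest to its own number). With the replicate block 15 members and 8168 probe sets were called, and no call of a member changed. A dim level limits the second probe sets of Ears2, Hars2 and Fars2.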
